A study of Homo sapiens with 9 samples.

Results

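IGFBP3 and GRB10 are regulators of insulin and insulin-like growth factor (IGF) signalling that act at different points of the pathway. They were taken by gene symbol from an RNA-seq table of transcripts, 12 of its 20909 transcripts and 2 of its 6819 genes. IGFBP3 (Gene ID 3486) is listed with 1 transcript, NM_000598, and GRB10 (Gene ID 2887) with 11, and all 12 passed the filter on low counts. The genes were chosen by their known values in these libraries, namely the fold changes between control, SH1 and SH3, so those values are given as a description and carry no test.

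IGFBP3 is a secreted protein that carries most of the IGF in blood and tissue fluid. While bound to it, IGF1 and IGF2 cannot reach the IGF1 receptor, and proteases that cut the binding protein set them free. GRB10 acts inside the cell: its SH2 domain binds the activated insulin and IGF1 receptors and dampens their signal, and the kinase mTORC1 phosphorylates and stabilises it. Its gene is imprinted, with a parental bias that differs between tissues. In clear cell renal carcinoma the PI3K, AKT and mTOR branch below these receptors is a drug target, and the study's title places TAF1D upstream of it.

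The libraries came from Caki-1, an established human line of clear cell renal carcinoma, with 3 libraries in each of 3 groups. The control group is labelled NC and wild type, and the groups SH1 and SH3 are labelled TAF1D knockdown, with a short hairpin RNA as the stated method. TAF1D encodes a subunit of the factor SL1, which loads RNA polymerase I onto ribosomal RNA genes. SH3 is here the name of a knockdown group and not the protein domain. The labels give neither hairpin sequence, vector nor time point, and do not say whether the libraries of a group are separate cultures or whether a group is 1 clone. The spread between libraries may therefore be technical.

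The listed transcripts held 1358215 to 1596467 estimated counts per library, 4.202% to 5.176% of its TPM (a level per transcript length, as a share of the library). All 20909 transcripts differ at least 2-fold between control 1 and SH1 1, whereas 51.51% to 64.85% do so in each of the 35 remaining library pairs. The table is thus a selection, and these 2 libraries are more extreme in it than the rest. With 0 rows for TAF1D in this table, no check of the knockdown itself was made. Of 15 renal and clear cell carcinoma markers, 2 are listed: the renal transcription factor PAX8 and the cadherin CDH6. PAX8 had 2.26 ± 0.82 FPKM (SD, n = 3) in control, 5.42 ± 1.13 in SH1 and 5.3 ± 4.05 in SH3. CDH6 had 0.917 ± 0.152 in control, 0.303 ± 0.0643 in SH1 and 0.103 ± 0.0115 in SH3, without overlap between the groups. Its sum was lower in the average of SH1 and SH3 (edgeR log2 fold change -2.41 ± 0.36, adjusted p = 0.0246, and 0.147 without control 1 and SH1 1), and its part in the differences of IGFBP3 and GRB10 was not tested. The 5 endothelial and 5 blood cell markers have no row, and of 6 fibroblast markers PDGFRB alone does. In bulk RNA, fewer cells with a transcript and less of it per cell cannot be told apart.

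The annotated starts of the genes are shown because their number and base composition differ. Both genes lie on the minus strand of chromosome 7 in the human RefSeq annotation (GRCh38.p14). The RefSeq promoter table gives IGFBP3 1 start and GRB10 5. The 250 bases before the IGFBP3 start (chr7:45921273-45921522, minus strand), before GRB10 start 1 (chr7:50793454-50793703, minus strand) and before start 5 (chr7:50705302-50705551, minus strand) read as follows. Capitals mark TATATA, the core of a TATA box, and on either strand GGGCGG, the core of a GC box; the sequence of a CCAAT box was searched too.
IGFBP3 start 1: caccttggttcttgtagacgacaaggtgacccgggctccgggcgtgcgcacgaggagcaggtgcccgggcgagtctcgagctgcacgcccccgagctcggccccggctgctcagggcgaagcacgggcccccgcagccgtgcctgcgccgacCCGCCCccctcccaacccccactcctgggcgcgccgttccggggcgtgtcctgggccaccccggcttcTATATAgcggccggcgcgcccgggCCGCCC
GRB10 start 1: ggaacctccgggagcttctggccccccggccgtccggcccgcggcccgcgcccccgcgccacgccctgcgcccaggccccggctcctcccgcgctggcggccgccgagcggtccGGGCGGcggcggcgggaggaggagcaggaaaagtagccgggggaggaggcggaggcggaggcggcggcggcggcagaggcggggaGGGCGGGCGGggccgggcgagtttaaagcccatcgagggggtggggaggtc
GRB10 start 5: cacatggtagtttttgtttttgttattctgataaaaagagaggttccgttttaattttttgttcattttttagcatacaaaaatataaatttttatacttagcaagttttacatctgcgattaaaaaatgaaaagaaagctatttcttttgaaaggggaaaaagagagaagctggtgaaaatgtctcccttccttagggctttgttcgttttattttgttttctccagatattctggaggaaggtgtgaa

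The stretch before IGFBP3 has 76% GC, 32 CpG dinucleotides, a TATATA beginning 30 bases before the start and 2 copies of GGGCGG on the opposite strand, one of them ending at the start. The stretch before GRB10 start 1 is richer in GC, with 81.6%, 37 CpG and 3 copies of GGGCGG, of which 2 overlap. Start 5 has 30.4% GC, 3 CpG and none of the motifs. Starts 2 to 4, not printed, have 81.6% (as start 1), 67.6% and 48.8% GC and 40, 19 and 2 CpG, and start 3 has the single CCAAT. Over the 35116 promoters of the RefSeq table, cut to the same length, 3.73% hold TATATA, 42.6% GGGCGG and 32% CCAAT, and the medians are 58% GC and 11 CpG. A match of letters is a description and no sign of binding, and the expression table does not assign the GRB10 transcripts to a start.

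IGFBP3, in its 1 listed transcript, was highest in control cells, and in SH1 it stood far below that level. Its level, as FPKM (fragments per kilobase of transcript, scaled to the size of the library), was 30.12, 24.96 and 28.87 in the control libraries. It was 2.55, 2.33 and 2.81 in SH1. In SH3 it was 14.82, 15.2 and 15.31. The 3 groups were fully separated: every SH1 library lay below every SH3 library, and every SH3 library below every control. Group means were 28 ± 2.69 FPKM (SD, n = 3) in control, 2.56 ± 0.24 in SH1 and 15.1 ± 0.257 in SH3. The spread within SH3 was thus narrow beside the distance of SH3 to either neighbour.

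The IGFBP3 transcript had estimated counts of 1508.95, 1277.23 and 1423.41 in control, 127.09, 117 and 144.95 in SH1, and 749.99, 773.93 and 787.37 in SH3. Counting error alone was 2.57% to 2.8% of the value in control, 8.31% to 9.25% in SH1 and 3.56% to 3.65% in SH3.

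In normalised read counts, the authors' scale between libraries, IGFBP3 in SH1 stood at 8.76% of the control mean (11.4-fold lower). In SH3 it stood at 53.5% of the control mean (1.87-fold lower), and SH3 exceeded SH1 6.11-fold. Without control 1 and SH1 1, the libraries on which the table was selected, IGFBP3 was still 11.1-fold lower in SH1 and 1.83-fold lower in SH3, and SH3 exceeded SH1 6.08-fold. The IGFBP3 difference was thus about as large in the remaining 7 libraries. The gene was chosen with its values in these libraries known too, so this is no independent check.

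The fitted values were close to these ratios. With counts summed per gene and fitted by edgeR over all genes, the IGFBP3 log2 fold change was -3.60 ± 0.15 (SE) in SH1 against control and -0.97 ± 0.13 in SH3 against control. Between the knockdown groups it was 2.64 ± 0.14, higher in SH3. Fitted as a single transcript, with the wider spread that transcripts share, the same comparisons gave -3.54 ± 0.29, -0.92 ± 0.26 and 2.62 ± 0.28. As background, edgeR's quasi-likelihood test at an adjusted p of 0.05 called 0.131% of the 17495 tested transcripts in SH1, 0.0286% in SH3 and 0.0972% between SH3 and SH1. Groups of libraries that do not overlap were far more common: 7.33% of transcripts were lower in SH1 and 5.27% lower in SH3 without overlap.

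**Figure D1:**
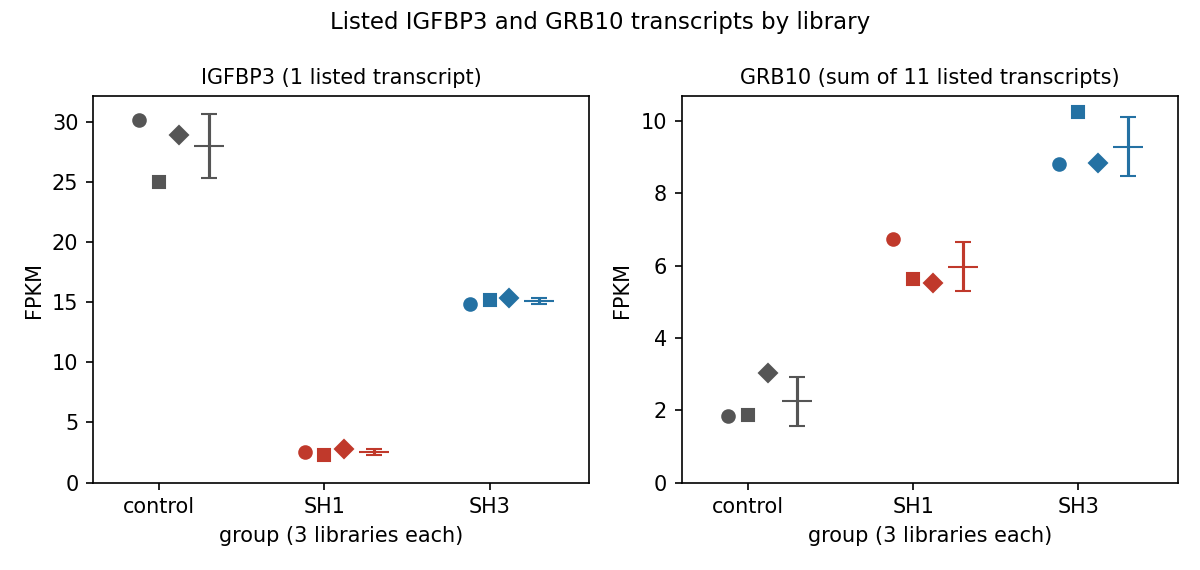
FPKM of the listed IGFBP3 transcript and of the 11 GRB10 transcripts added up, in each library of the 3 groups; circles, squares and diamonds stand for replicates 1, 2 and 3, and the bar beside each group shows its mean and SD (n = 3). IGFBP3 runs from control (24.96 to 30.12) through SH3 down to SH1 (2.33 to 2.81), while GRB10 runs from control (1.83 to 3.04) through SH1 up to SH3 (8.81 to 10.25).

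GRB10 went the other way, and its groups were in another order. The FPKM of its 11 listed transcripts added up to 1.83, 1.88 and 3.04 in control. The sum was 6.75, 5.64 and 5.52 in SH1. It was 8.81, 10.25 and 8.84 in SH3. No control library reached the lowest SH1 library, and no SH1 library the lowest SH3 library, although control 3 stood apart from the other controls. Means were 2.25 ± 0.685 FPKM (SD, n = 3) in control, 5.97 ± 0.678 in SH1 and 9.3 ± 0.823 in SH3. The sum covers the listed transcripts alone, which the selection favoured for their difference between control 1 and SH1 1, and is not the gene's total.

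The GRB10 sums rested on fewer reads than IGFBP3 in control. They were 176.11, 189.17 and 298.21 estimated counts in control, 651.21, 546.87 and 568.35 in SH1, and 855.08, 1017.58 and 886.97 in SH3. Counting error alone was 5.79% to 7.54% in control, 3.92% to 4.28% in SH1 and 3.13% to 3.42% in SH3. The distance of control 3 from controls 1 and 2 was larger than that error.

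In normalised read counts the GRB10 mean was 2.48-fold the control mean in SH1 and 3.99-fold in SH3, and SH3 exceeded SH1 1.61-fold. Without control 1 and SH1 1 these ratios were 2.1, 3.58 and 1.7, in libraries whose GRB10 values were also known when the gene was chosen. Fitted per gene, the log2 fold change of GRB10 was 1.23 ± 0.24 (SE) in SH1 and 1.95 ± 0.24 in SH3 against control, and 0.71 ± 0.24 in SH3 against SH1. Sums without overlap between the groups made up 11.4% of the 6393 tested sums for higher in SH1, 10% for higher in SH3 and 10.9% for higher in SH3 than in SH1. The shares called by edgeR on sums were 2.14%, 0.407% and 1.36% in the same order.

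The opposite order of the groups changed the ratio of the listed transcripts, which are not the genes' totals. IGFBP3 exceeded the GRB10 sum by 16.5, 13.3 and 9.5 times in the control libraries, in FPKM. In SH3 it exceeded it by 1.68, 1.48 and 1.73 times. In SH1 the order was turned round, with IGFBP3 at 0.378, 0.413 and 0.509 times the GRB10 sum. All 3 groups were separated in this ratio. The averages over SH1 and SH3 against control, fitted per gene, were -2.28 ± 0.11 for IGFBP3 and 1.59 ± 0.22 for GRB10, though for neither gene did SH1 and SH3 share a level.

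Single GRB10 transcripts were far less steady than their sum. Of the 99 values (11 transcripts in 9 libraries), 12 were 0, and 4 transcripts had no 0. The transcript with the largest share of the GRB10 counts changed from library to library, with 6 different transcripts in that place and a share of only 15.6% to 26.4%. Isoforms of 1 gene overlap over most of their length, so the split of reads among them is an estimate, and a 0 in 1 library beside a higher count in its replicate cannot be read as a switch of isoform.

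**Figure D2:**
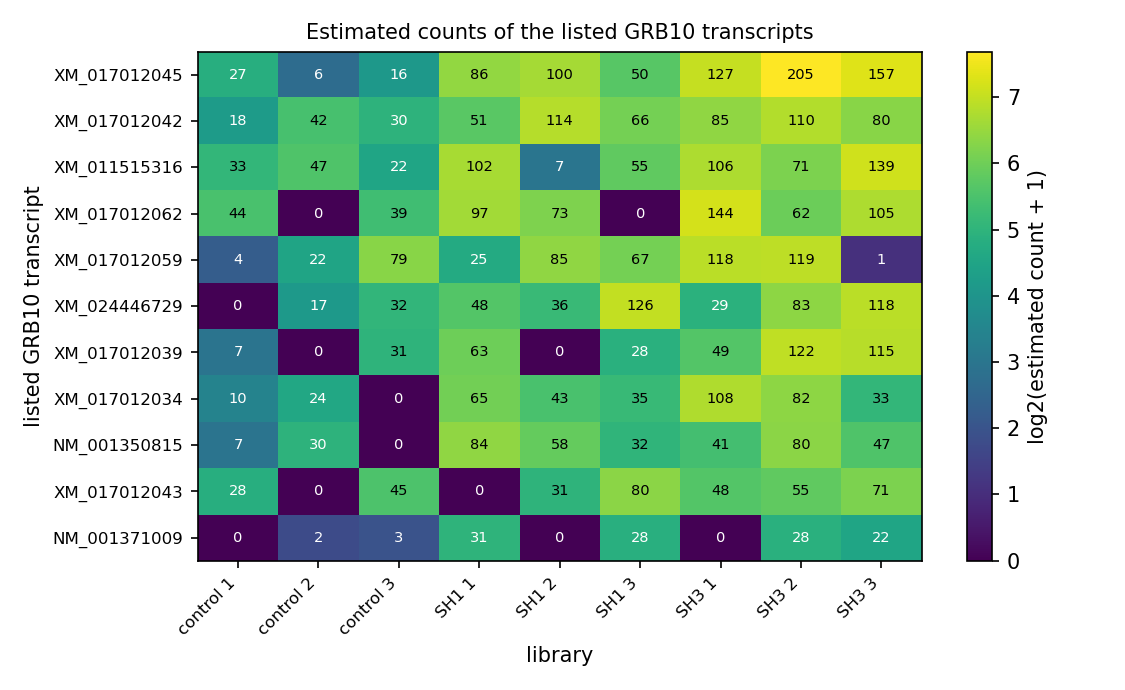
Estimated counts of the 11 listed GRB10 transcripts (rows) in the 9 libraries (columns), with the rounded count in each cell and the colour giving log2 of the count plus 1. Most transcripts are brighter in the SH1 and SH3 columns than in control, but dark cells (0 counts) appear in all 3 groups and the brightest row differs between libraries.

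XM_017012045 had the highest mean of the GRB10 transcripts and was the sole one whose libraries were separated in all 3 pairs of groups. Its FPKM was 0.31, 0.06 and 0.18 in control, 0.96, 1.11 and 0.54 in SH1, and 1.41, 2.25 and 1.7 in SH3. The fitted log2 fold change of XM_017012045 was 2.16 ± 1.05 in SH1, 3.25 ± 1.09 in SH3 and 1.09 ± 1.01 between them, with standard errors several times those of the GRB10 sum. XM_017012042 had 0.17, 0.41 and 0.31 FPKM in control, 0.51, 1.13 and 0.64 in SH1, and 0.84, 1.08 and 0.77 in SH3. It was above control in every SH1 and SH3 library, and SH1 and SH3 overlapped. The same held for XM_017012034, at 0.1, 0.24 and 0 FPKM in control, 0.7, 0.46 and 0.36 in SH1, and 1.14, 0.86 and 0.34 in SH3. XM_017012043 showed the opposite step in the pair that selected the table, 0.26 FPKM in control 1 and 0 in SH1 1, but had 0.3 and 0.75 in the other SH1 libraries and 0.46, 0.52 and 0.67 in SH3. The curated transcript NM_001350815 had 0.07, 0.3 and 0 FPKM in control, 0.85, 0.58 and 0.31 in SH1, and 0.41, 0.8 and 0.46 in SH3. Its SH1 and control libraries touched, and in normalised read counts they overlapped.

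Counted over the 11 GRB10 transcripts, 10 were higher and 1 was lower in SH1 1 than in control 1, a difference that the selection required. In the libraries that this selection of the table did not use, 9 of 11 had a higher mean in SH1 2 and 3 than in control 2 and 3. There, 11 of 11 had a higher mean in SH3 than in control 2 and 3. GRB10 was chosen with its values in those libraries known, so these counts are a description. In SH3 the mean of 9 of 11 transcripts exceeded that of SH1. Libraries did not overlap for 4 of the 11 in SH1 against control, for 8 in SH3 against control and for 1 in SH3 against SH1, each time in the higher direction. The background shares of that direction were 9.03%, 7.34% and 7.38% of all tested transcripts. These transcripts share reads, so they are not independent of each other.

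The ligands and receptors of the pathway were sparsely represented. Of 9 such genes, 3 were listed: IGF2, the IGF1 receptor gene IGF1R and TMEM219, which encodes a membrane protein described as a receptor of IGFBP3. IGF2 was near the limit of detection, at 0.01 FPKM in every control, 0.41, 0.22 and 0.43 in SH1, and 0.09, 0.05 and 0.03 in SH3. The summed fit of IGF2 in SH1, 4.62 ± 1.11, did not pass the edgeR test (adjusted p = 0.101). DESeq2 on the same sums called it in SH1 (adjusted p = 0.00102) and in the average (0.0299) but not in SH3 (0.469). Of all transcripts it could adjust, DESeq2 called 2.97% in SH1, 2.19% in SH3 and 2.45% in SH3 against SH1. Its share of all sums is not given here, so its calls on sums, here and below, have no background beside them. IGF1R varied as much within groups as between them, from 0 to 2.68 FPKM. TMEM219 summed to 11.96, 13.4 and 16.1 FPKM in control, 17.87, 20.04 and 19.18 in SH1, and 18.35, 21.74 and 22.88 in SH3, without overlap with control. Its fitted log2 fold changes, 0.33 ± 0.22 in SH1 and 0.54 ± 0.22 in SH3, did not pass the edgeR test (adjusted p = 0.744 and 0.557).

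Of the other 8 genes of binding proteins and their partners, IGFBP1 alone was listed, whose gene lies next to IGFBP3 on chromosome 7. Like IGFBP3 it was low in SH1: 1.15, 1.09 and 1.1 FPKM in control and 0.21, 0.38 and 0.41 in SH1. Unlike IGFBP3 it was not below control in SH3, at 1.59, 1.48 and 1.36 FPKM. Its summed fits, -1.88 ± 0.71 in SH1 and 0.32 ± 0.68 in SH3, did not pass the edgeR test (adjusted p = 0.359 and 0.999), whereas DESeq2 gave adjusted p = 0.0053 and 0.988.

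Among 17 genes that encode IGF binding protein proteases or their inhibitors, 7 were listed and none passed the edgeR test on sums or transcripts. HTRA1, a serine protease, was 5.31, 5.59 and 4.25 FPKM in control, 2.51, 2.28 and 2.78 in SH1, and 4.96, 5.38 and 5.1 in SH3 (summed fit -1.17 ± 0.26 in SH1, adjusted p = 0.0738). STC1, a stanniocalcin that inhibits the protease PAPP-A, was 0.32, 0.42 and 0.52 in control, 1.64, 1.86 and 1.89 in SH1, and 1.03, 1.08 and 0.77 in SH3 (1.93 ± 0.43 in SH1, adjusted p = 0.0743). DESeq2 on the same sums called both in SH1 (adjusted p = 4.53e-05 for HTRA1 and 1.97e-06 for STC1), STC1 in SH3 (0.0486) and HTRA1 in SH3 against SH1 (0.000124). Both had separated SH1 and control libraries, HTRA1 lower in SH1, as IGFBP3 was, and STC1 higher. Of all tested transcripts, 7.33% were lower and 9.03% higher in SH1 without overlap. PRSS23 was at 0 in 5 of its libraries.

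GRB10 belongs with the adaptors and feedback inhibitors at the receptor, of which 22 of 37 others were listed. NEDD4L, a ubiquitin ligase related to the GRB10 partner NEDD4, summed to 3.97, 3.37 and 3.02 FPKM in control, 5.3, 5.27 and 4.57 in SH1, and 2.89, 2.54 and 2.43 in SH3. It was lower in SH3 than in SH1 (-0.88 ± 0.16, adjusted p = 0.0466, and 0.106 without control 1 and SH1 1). Its groups were thus in another order than those of GRB10, which was highest in SH3. NEDD4L was picked for naming after its values were seen.

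GIGYF1, GAB2, SOS1 and SOCS3 had separated SH1 and control libraries but did not pass the edgeR test on sums, while DESeq2 called GIGYF1 (adjusted p = 0.00379), GAB2 (0.00795) and SOS1 (0.0122) in SH1 and not SOCS3 (0.126). Of the 21 tested sums of this list, 8 were higher and 0 lower in SH1 without overlap. Over all sums 11.4% were higher in SH1 without overlap, and the difference between these shares was not tested. GIGYF1, a GRB10-interacting protein, summed to 1.12, 1.75 and 0.93 FPKM in control, 3.32, 4.02 and 5.85 in SH1, and 2.18, 1.1 and 1.73 in SH3 (adjusted p = 0.11 in SH1). GAB2, a docking protein, summed to 2.93, 3.8 and 3.47 in control, 5.34, 6.26 and 6.99 in SH1, and 4.01, 3.68 and 3.73 in SH3 (adjusted p = 0.16 in SH1). SOS1, an exchange factor for RAS, was 1.49, 1.87 and 1.83 in control, 3.12, 3.8 and 6.56 in SH1, and 1.98, 2.06 and 1.44 in SH3 (adjusted p = 0.141 in SH1). SOCS3, a feedback inhibitor, was 4.19, 4.93 and 7.5 in control, 9.45, 10.04 and 13.99 in SH1, and 10.63, 7.43 and 6.86 in SH3 (adjusted p = 0.34 in SH1). DESeq2 called GIGYF1 (adjusted p = 0.039), GAB2 (0.0305) and SOS1 (0.015) lower in SH3 than in SH1. It called none of these genes, nor SOCS3, in SH3 against control. SH2B2 lay higher in SH1 too, at 1.62 to 3.15 FPKM against 0.74 to 1.11, while SH2B3, SHC1 and PTPRF overlapped between control and SH1, as did DOK1. The sum of DOK4 was 3.2, 2.66 and 0.01 FPKM in control and 5.16, 6.43 and 7.62 in SH1, and it was not called either.

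Over all IGF and insulin receptor genes other than IGFBP3 and GRB10, 58 of 107 were listed with 191 transcripts, and 163 of these were tested. The edgeR test called 0 transcripts in each of the 4 comparisons. At an unadjusted p under 0.05 there were 9 higher and 4 lower in SH1, 4 higher and 3 lower in SH3, and 5 higher and 6 lower in SH3 against SH1. For the average of SH1 and SH3 there were 6 higher and 4 lower, where edgeR called 0.12% of all transcripts. Over all transcripts tested, 7.83%, 5.87%, 6.25% and 7.37% had such a p in these comparisons, so the share of the pathway's transcripts was near the background. DESeq2 called 5, 3, 2 and 4 of them in these comparisons, where it called 2.97%, 2.19%, 2.45% and 2.81% of all transcripts it could adjust. In SH1 these were transcripts of TBC1D7, RICTOR, TSC2 and PIK3CD, each at 0 in every library of control or SH1. On sums per gene, edgeR called 1 in SH1 and 2 in SH3 against SH1, NEDD4L among the latter, with 0 in SH3 and 0 in the average (edgeR called 1.11% of all sums in the average). At an unadjusted p under 0.05 the 56 tested sums had 12 higher and 3 lower in SH1, beside 11.5% of all sums. In SH3 there were 3 higher and 4 lower (8.38% of all sums), and in SH3 against SH1 3 higher and 8 lower (10.8%). The average had 6 higher and 2 lower (10.2%). On sums the pathway's share thus lay above that of all sums in each comparison, most in SH1, and this difference was not tested.

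The median log2 fold change of the 163 transcripts was 0.54 in SH1, -0.09 in SH3 and -0.47 in SH3 against SH1, beside 0.06, 0.04 and 0.00 over all transcripts. Transcripts of 1 gene share reads, so these are not independent of each other. The PI3K, AKT and mTOR core had 25 of 36 genes listed and 69 transcripts tested, with medians of 0.24, -0.09 and -0.22. INPPL1, a lipid phosphatase, summed to 12.26, 12.57 and 17.74 FPKM in control, 18.19, 34.93 and 30.95 in SH1, and 8.48, 18.7 and 9.38 in SH3 (adjusted p = 0.461 in SH1). MTOR, the kinase, summed to 2.53, 8.07 and 9.29 in control, 6.63, 9.28 and 4.72 in SH1, and 14.25, 9.86 and 9.15 in SH3, with overlap, and RPS6KB2 overlapped too.

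**Figure D3:**
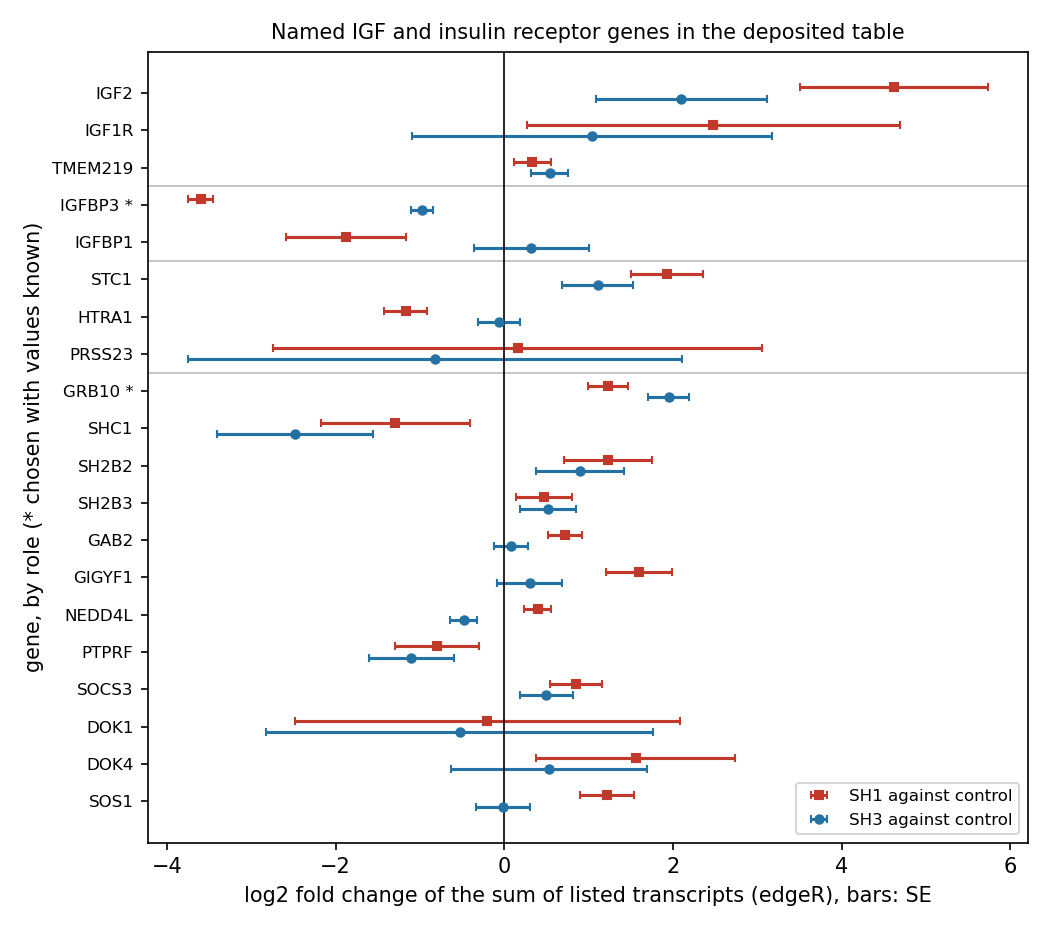
Fitted log2 fold change of the sum of listed transcripts (edgeR, bars show the SE) in SH1 and in SH3 against control for the named genes of ligands and receptors, binding proteins, proteases and adaptors, separated by grey lines; asterisks mark IGFBP3 and GRB10. IGFBP3 lies at -3.60 and -0.97 and GRB10 at 1.23 and 1.95, and wide bars belong to genes with few counts or with 0 in some libraries, whose fitted value depends on the prior count.

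Genes that other pathways of IGFBP3 or GRB10 bring in were read on the same fits, and none of their transcripts passed the edgeR test in any of the 4 comparisons. IGFBP3 is a known target of p53, hypoxia and TGF-beta. At an unadjusted p under 0.05 in SH1 there was 1 transcript higher of 24 tested p53 target transcripts, 2 higher of 37 for hypoxia and 2 lower of 21 for TGF-beta, beside 7.83% of all transcripts in either direction. In SH3 there were 1 higher for p53, 1 higher and 1 lower for hypoxia and 5 lower for TGF-beta (5.87% of all transcripts). In SH3 against SH1 there were 1 higher for p53, 1 higher for hypoxia, and 3 higher and 4 lower for TGF-beta (6.25% of all transcripts). On sums, CDKN1A, the p53-induced cell cycle inhibitor, rose from 5.83 ± 0.324 FPKM in control to 14.6 ± 2.21 in SH1 and 17.5 ± 0.971 in SH3 (edgeR adjusted p = 0.0166 and 0.0159, and 0.0524 and 0.0887 without control 1 and SH1 1). TGFBI, a matrix protein induced by TGF-beta, fell in SH1 from 9.65 ± 0.741 to 2.17 ± 0.265 (edgeR adjusted p = 0.00195), and was 4.32 ± 0.304 in SH3 (adjusted p = 0.0736). TAGLN, an actin-binding protein of the same list, fell in SH1 from 4.1 ± 0.789 to 1.31 ± 0.174 (edgeR adjusted p = 0.0132) and was 4.92 ± 0.333 in SH3 (adjusted p = 0.999). Of the 10 tested TGF-beta target sums, edgeR called 2 lower and 0 higher in SH1, beside 2.14% of all sums. FN1 of that list had 24.4 ± 17.5 FPKM in control and 25.6 ± 18.9 in SH1. Without overlap, 1 sum of the list was higher in SH1, beside 11.4% of all sums. The genes given here, and those of the next sentences, were named after their values were seen.

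FOXO factors act below the insulin receptor. Of 9 tested FOXO target transcripts 2 were higher in SH1 at an unadjusted p under 0.05 (7.83% of all transcripts in either direction) and 0 were higher or lower in SH3 and in SH3 against SH1. On sums SOD2, the mitochondrial superoxide dismutase, rose in SH1 from 32.5 ± 9.56 to 69.5 ± 12.7 FPKM (edgeR adjusted p = 0.0405, and 0.226 without control 1 and SH1 1). GRB10 is imprinted, and of 31 tested transcripts of other imprinted genes 3 were higher and 2 lower in SH1 at an unadjusted p under 0.05, beside the same 7.83% of all transcripts. For these genes 2 were higher in SH3 and 3 higher in SH3 against SH1. The IGF2 mRNA-binding proteins IGF2BP1, IGF2BP2 and IGF2BP3 had 4 tested transcripts and none at that level. The other abundant genes of these lists (GADD45A, HK2, NDRG1, KDM3A, FN1, KLF6, GNAS, SGCE and BLCAP) did not pass the edgeR test on sums in any of the 4 comparisons. Of these, DESeq2 on sums called HK2 lower in SH1 (adjusted p = 0.00359) and NDRG1 higher in SH3 (0.000913) and in the average (0.00446), and none of the rest. NDRG1 had 0.907 ± 1.03 FPKM in control, 4.3 ± 4.63 in SH1 and 14.6 ± 3.06 in SH3.

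The level pattern of IGFBP3 over the 9 libraries was closest to those of KRT19, a keratin, ADAMTS1, a secreted metalloproteinase, KRTAP2-3 and INO80C. Likeness was the root mean square difference of log2(FPKM + 1) after centring each transcript, among 4942 candidates with a mean of at least 1 FPKM. The distance from IGFBP3 was 0.415 for KRT19, 0.464 for ADAMTS1, 0.504 for KRTAP2-3 (listed as 2 copies of 1 transcript) and 0.528 for INO80C. KRT19 had 80.7 ± 9.81 FPKM in control, 18.2 ± 3.15 in SH1 and 62.5 ± 3.55 in SH3, and ADAMTS1 had 43.8 ± 1.15, 9.17 ± 0.247 and 21.8 ± 1.95. Both share with IGFBP3 the order control, SH3, SH1, as does INO80C, at 7.92 ± 0.406, 1.63 ± 0.181 and 6.17 ± 0.791. KRTAP2-3 does not, with 15.1 ± 4.04 FPKM in control, 2.33 ± 0.0802 in SH1 and 16.9 ± 0.715 in SH3. With a pseudocount of 0.1, 4 of these 5 transcripts remained among the nearest 5.

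The nearest to the GRB10 transcript XM_017012045 was a transcript of UPP1, uridine phosphorylase, at a distance of 0.168. It had 0.393 ± 0.0924 FPKM in control, 1.05 ± 0.137 in SH1 and 2.14 ± 0.426 in SH3. RTN2 (0.221), LXN (0.223), DEF8 (0.224) and LYRM1 (0.227) followed. These levels are low against the pseudocount of 1, and with 0.1 in its place 2 of the 5 remained. UPP1 is also 1 of 14 protein-coding genes that lie between IGFBP3 and GRB10 on chromosome 7, of which 5 were listed (TNS3, SUN3, UPP1, ABCA13 and FIGNL1) and 0 had a transcript past the edgeR threshold in any of the 4 comparisons.

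**Figure D4:**
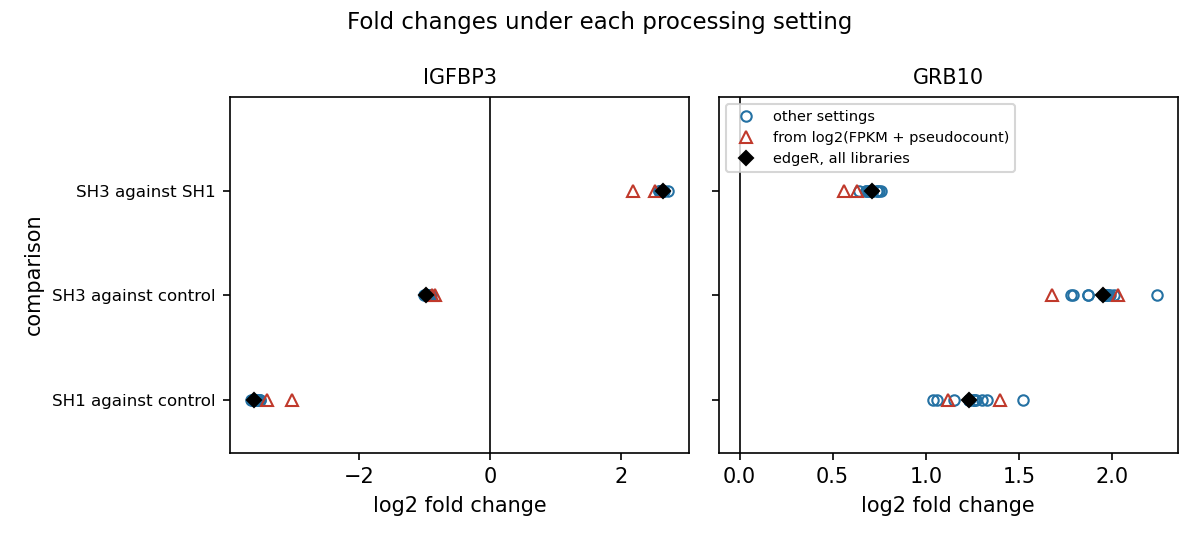
Log2 fold change of IGFBP3 and of the GRB10 sum in 3 comparisons under each processing setting; the diamond is the edgeR fit of all libraries, triangles are differences of mean log2(FPKM + pseudocount), and open circles are the other settings. Every IGFBP3 value lies between -3.65 and -3.02 in SH1 and between -1 and -0.84 in SH3, and every GRB10 value between 1.04 and 1.52 in SH1 and between 1.68 and 2.24 in SH3.

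The direction of both genes was kept under every setting run, in each comparison. GRB10 between SH3 and SH1 was the smallest of these differences, at 0.56 to 0.76 on the log2 scale. Its lowest value came from log2(FPKM + 1), a scale that understates changes of low levels.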

How the data were processed

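RNA of 9 Caki-1 libraries (3 control, 3 SH1, 3 SH3) was analysed from the authors' deposited table, which gives each listed transcript an estimated count, FPKM, TPM and a normalised read count. Per the labels' protocols, total RNA was extracted with Trizol; the aligner and counter are not given in the sources used here. The submitters' processing notes name the mouse build mm10, whereas 20900 transcripts carry gene numbers of the human RefSeq table, so the values were read as human. The deposited normalised count is a linear signal. In 100% of values (tolerance 1e-06) it is what results when the estimated count is raised to the next whole number and scaled by a library's single factor. FPKM and TPM are as deposited by the authors.

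Estimated counts deposited by the authors were rounded to whole numbers, as transcripts and as sums per Gene ID, and fitted with edgeR 4.0.16 in R 4.3.3 (quasi-likelihood, robust, TMM, default filterByExpr with a minimum count of 10) over all 9 libraries. After the filter 17495 transcripts and 6393 sums remained. Benjamini-Hochberg adjustment ran over all of them in each of 4 comparisons, with a threshold of 0.05. The SE is the log2 fold change over the square root of F. No library pair within a group agreed within sampling noise in its estimated counts per transcript (chi-square per degree of freedom 41.55 to 57.78). These counts include the split of reads among isoforms, which is an estimate. The script was tested on simulated data.

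IGFBP3, GRB10 and the gene lists (IGF ligands and receptors, binding proteins, proteases, adaptors, PI3K and mTOR core, IGF2 mRNA-binding proteins, targets of p53, hypoxia, TGF-beta and FOXO, imprinted genes, cell type markers) were chosen with earlier results of these data known. Named were all their transcripts, listed pathway genes whose main transcript averaged 1 FPKM or more, the 3 most abundant genes of each other list, and the 5 transcripts of the most similar pattern; genes of small counts were named after their values were seen. Some genes of the lists are counted but not reported here by name. Alternatives were DESeq2 1.42.0, limma 3.58.1, other scalings, filters and pseudocounts, a replicate block, leaving out libraries and, chosen after seeing the data, the deposited factors as scaling.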

Additional observations from a re-analysis of the deposited data

Results flagged for a closer look

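Among the genes reported here other than IGFBP3 and GRB10, SH1 and SH3 differed in 3 by edgeR's test of the difference on sums per gene (Benjamini-Hochberg over 6393 sums, positive where SH3 is higher). NEDD4L differed by -0.88 ± 0.16 (adjusted p = 0.0466), with all SH3 libraries below and all SH1 libraries above the control libraries. TAGLN differed by 1.99 ± 0.27 (adjusted p = 0.0124), low in SH1 alone. FBXO32, a ubiquitin ligase of muscle wasting and a FOXO target, differed by -1.31 ± 0.24 (adjusted p = 0.0453), with 2.14, 2.18 and 2.26 FPKM in SH1 against 0.8 to 0.86 in SH3 and 0.82 to 1.04 in control. Without control 1 and SH1 1, TAGLN (adjusted p = 0.0329) still passed, while NEDD4L (0.106) and FBXO32 (0.0932) did not.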

How the results depend on the processing

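No direction of IGFBP3 or GRB10 was reversed by any of the 16 alternatives run on each. IGFBP3 moved beyond the library spread on pseudocount scales only: log2(FPKM + 1) gave -3.02 in SH1, -0.84 in SH3 and 2.18 in SH3 against SH1, and log2(FPKM + 0.1) gave -3.40 in SH1. With the replicate number as a block, IGFBP3 was -3.61, -0.96 and 2.64, and GRB10 was 1.27, 1.97 and 0.71. Same-numbered libraries had correlations of -0.275 to 0.0324 in their deviations, and 0 of 9 pairs exceeded 0.1. The lowest belongs to control 1 and SH1 1, on whose difference the table was selected. These correlations therefore cannot show whether the libraries were paired.

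Counts of called transcripts did depend on the processing, and the cause was not tested. In SH1, SH3, SH3 against SH1 and the average, edgeR called 23, 5, 17 and 21. DESeq2 called 455, 343, 367 and 431, limma-trend 42, 17, 38 and 34, a fit of only the groups compared 3, 0, 4 and 7, and the block 15, 2, 5 and 7. Without control 1 and SH1 1 they were 13, 1, 5 and 2, and sums per gene gave 137, 26, 87 and 71. The 0 in SH3 came from the fit of only the groups compared. In edgeR's fit of all libraries, which called 5 in SH3, 1027 transcripts had an unadjusted p under 0.05 there. Leaving out 1 library gave 11 to 20, 1 to 12, 1 to 23 and 5 to 21. Those that moved a count over 1.5 times were SH1 2 (11), SH3 1 and SH3 3 (15 each) in SH1; control 1 (12), control 2 and 3 (2 each), SH1 1 (1), SH1 2, SH1 3 and SH3 1 (3 each) in SH3; control 3 (8), all SH1 (1 to 4) and all SH3 libraries (4 to 10) in SH3 against SH1; and every library but control 1 (5 to 7) in the average. For the IGF and insulin receptor genes, 0 by edgeR, leaving out 1 library gave 0 to 0, DESeq2 gave 5, 3, 2 and 4, and sums gave 1 in SH1 and 2 in SH3 against SH1. Of the 99 values of single GRB10 transcripts, 12 are 0.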
